A study of Rattus norvegicus with 125 samples.

Results

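The distal convoluted tubule (DCT) of the rat kidney was profiled by RNA sequencing in 8 libraries, out of 125 samples in all. Members were the libraries that the submitters label as distal convoluted tubule, and every gene of the expression table was considered. The 8 DCT libraries were set against the pool of the other 13 tubule segments (97 libraries) and against its neighbours along the nephron. All segments came from adult male Sprague-Dawley rats of 200 to 250 g on normal chow, whose left kidney was perfused with collagenase, and tubules were then picked by hand. The cortex, which holds the DCT, was digested for 25 minutes, the outer medulla for 50 and the inner medulla for 90. The comparison groups were the proximal segments S1, S2 and S3 (7 libraries each), the descending thin limbs of short loops (SDL, 10), of long loops within the outer medulla (LDLOM, 9) and of those within the inner medulla (LDLIM, 4), the ascending thin limb (tAL, 7), and the thick ascending limb, of which mTAL is the medullary and cTAL the cortical stretch (7 each). Downstream lay the connecting tubule (CNT, 6) and the cortical, outer medullary and inner medullary collecting duct (CCD, 11, OMCD, 7 and IMCD, 8). The labels number the libraries but do not say that they came from separate rats, so p-values measure the spread between libraries, which may be technical.

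The DCT is the short cortical segment that follows the macula densa and the thick ascending limb. Its cells take up sodium and chloride from the lumen through the thiazide-sensitive cotransporter Slc12a3, whose activity is set by WNK kinases through the kinase SPAK, and return them to the blood through the sodium pump and basolateral chloride channels. Basolateral potassium channels recycle the potassium that the pump brings in and hold the membrane voltage. The segment is also known for the fine adjustment of urinary magnesium and calcium, and for a very high density of mitochondria.

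Values are in RPKM, that is, reads scaled by transcript length and by the size of the library. Differences and tests are on log2(RPKM + 1), a scale that understates the change of genes with low values. For each gene, 3 values given together are the lowest, the median and the highest of a group's libraries. Between 2480 and 7731 genes reached 1 RPKM in a DCT library, with a median of 6065, against 1438 to 8574 in the other libraries, with a median of 4503. DCT 4 was the DCT library with the fewest. Across genes, which are not independent replicates, the log2 values of pairs of DCT libraries correlated at 0.516 to 0.892. The DCT mean profile lay nearest to that of cTAL (r = 0.924), then CCD (0.866), CNT (0.85) and mTAL (0.84), and farthest from LDLIM (0.673).

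The labelled tissue was checked on 2 markers, Slc12a3 and Ppp1r1a, an inhibitor of protein phosphatase 1. Slc12a3 was at 284, 317, 287, 45.0, 366, 113, 382 and 340 RPKM in DCT 1 to DCT 8, against a median of 0.0029 RPKM in the other 97 libraries. Of those, 10 reached 1 RPKM, and the highest, S3 5 at 65.8 RPKM, was the sole library of another segment above DCT 4. Slc12a3 was higher in DCT than in the pool by 7.47 on the log2 scale (SE 0.34, adjusted p 2.2e-38). Ppp1r1a was at 206, 113, 183, 188, 348, 485, 255 and 249 RPKM in DCT, against 177, 407 and 512 RPKM in cTAL and 0, 0.0276 and 1.91 RPKM in CNT. The DCT libraries overlapped those of cTAL, with DCT 2 below the lowest of them, and those of CNT nowhere. Ppp1r1a exceeded the pool by 5.75 (SE 0.54, adjusted p 1.4e-15), while its difference from cTAL was -0.55 (SE 0.76, adjusted p 1.0).

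**Figure D1:**
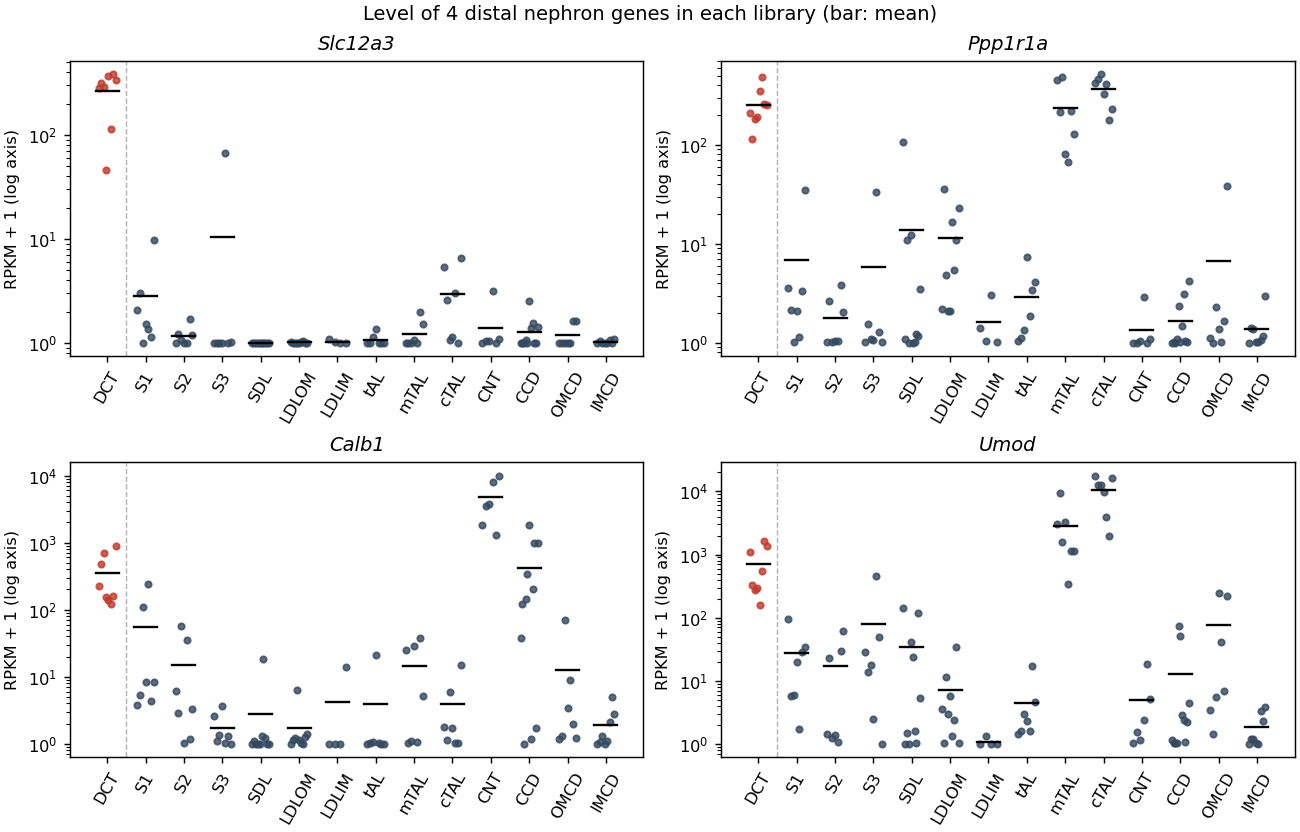
RPKM of Slc12a3, Ppp1r1a, Calb1 and Umod in each library of the 14 segments, on log axes of RPKM + 1, with DCT at the left, points for libraries and bars for segment means. Slc12a3 stands at 45.0 to 382 RPKM in DCT, Ppp1r1a is shared with cTAL, Umod is highest in cTAL and Calb1 in CNT.

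Genes that stood above every other segment were few. Of 11078 genes tested, 14 (0.126%) had a DCT mean at least 1 log2 unit above each of the other 13 segment means and passed the limma test against each of them, and 22 did without DCT 4. In the opposite direction 0 genes passed, and 1 did at an unadjusted p under 0.05, a level at which 56 passed as higher. The 14 were Slc12a3, Mlana, Fetub, Sgca, Kcng1, Gfra1, Olr1104, Fndc5, Stk32a, Sdk2, Spi1, Slc39a2, Lrtm2 and Sall3. Genes were tested if they reached 1 RPKM in 4 or more tubule libraries, DCT included. Outside DCT, Sgca, Spi1, Slc39a2 and Lrtm2 reached it in 3 libraries each, Kcng1 in 2, and Stk32a and Sdk2 in 1. Those genes entered the test only through DCT libraries, where they are high, and their p-values do not allow for that. Of the 14, Slc12a3 alone was abundant, and the median DCT level of the other 13 ran from 1.18 RPKM for Sdk2 to 33.0 RPKM for Fetub.

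Fetub, which encodes the protease inhibitor fetuin-B, was at 0, 33.0 and 374 RPKM in DCT, against a median of 0 and a highest value of 16.5 RPKM (cTAL 5) in the other libraries. DCT 4 was the library at 0, and 6 of 8 DCT libraries exceeded every other library. The smallest difference from another segment was 4.11, from S1 (adjusted p 1.8e-09), and it was 4.82 without DCT 4. Mlana, known as a melanosome protein of pigment cells, was at 1.15, 15.5 and 54.3 RPKM in DCT, and 4 of the other 97 libraries reached 1 RPKM, with 2.95 RPKM at most. All DCT libraries but DCT 6 were above that value, and the smallest difference was 2.80, from cTAL (adjusted p 2e-11). Sgca, a sarcoglycan of the muscle dystrophin complex, was at 0.913, 20.0 and 44.2 RPKM in DCT, against a highest value of 9.67 RPKM elsewhere (cTAL 5). The smallest difference was 2.66, from cTAL (adjusted p 3.5e-09). Col1a1, which lies across Sgca in the RefSeq table, was at 0 to 14.9 RPKM in DCT. Whether the authors' counting used strand is not stated in the sources read here, so reads of overlapping genes cannot be told apart.

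Kcng1, a modifying subunit of voltage-gated potassium channels, was at 0, 11.2 and 24.7 RPKM in DCT, and 2 of the other 97 libraries reached 1 RPKM. Gfra1, the GDNF co-receptor, was at 0.0766, 10.6 and 45.6 RPKM in DCT, against at most 13.8 RPKM elsewhere (tAL 1). DCT 4 was the lowest library for both genes. The smallest differences were 2.34 from S2 for Kcng1 (adjusted p 8.8e-08), with 1.40 and no call after quantile normalization, and 2.70 from CNT for Gfra1 (adjusted p 9.3e-06). Olr1104, of the olfactory receptor family, was at 0, 8.54 and 26.9 RPKM in DCT and overlapped the other libraries up to 22.4 RPKM (SDL 6), with a smallest difference of 2.13 from IMCD (adjusted p 0.00052). In the table made without polyadenylation-site data that difference was 0.91. Fndc5, the precursor of irisin, was at 0, 3.44 and 11.9 RPKM in DCT and at most 2.43 RPKM elsewhere, with a smallest difference of 1.42 from cTAL (adjusted p 0.00083), which was 0.78 and not called after quantile normalization.

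**Figure D2:**
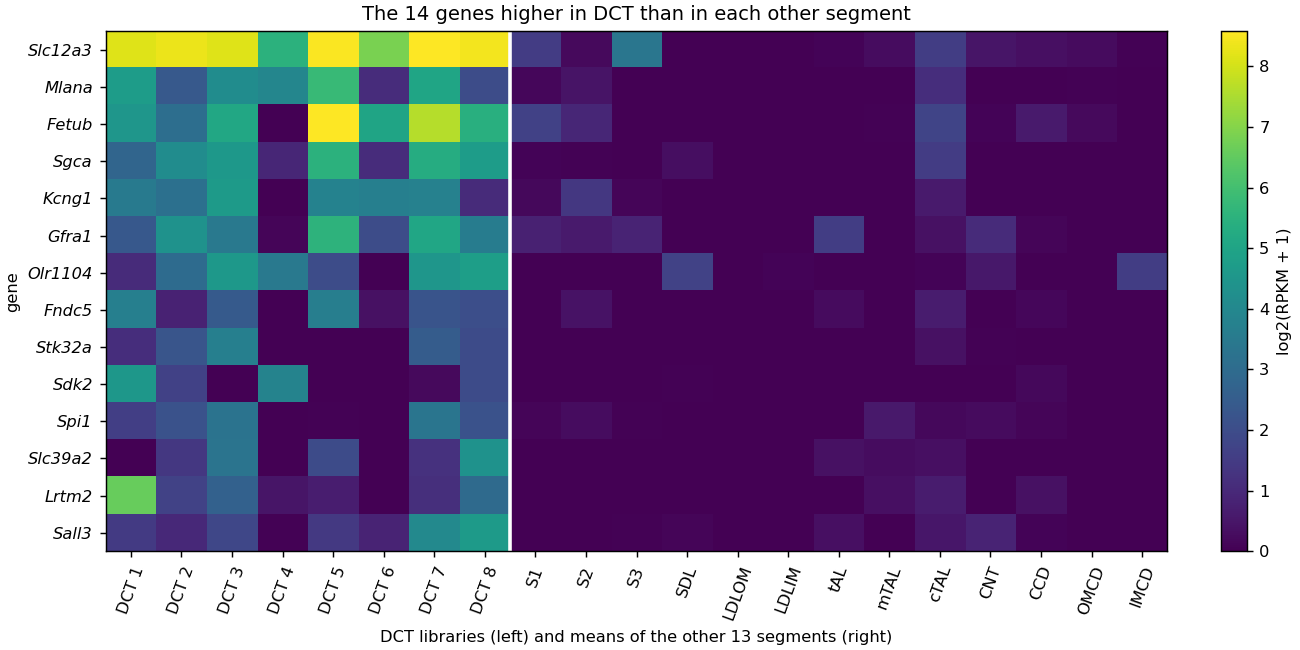
Heat map of the 14 genes that exceeded every other segment (rows), with colour for log2(RPKM + 1) in the 8 DCT libraries (left) and for the means of the other 13 segments (right). Slc12a3 and Fetub reach the highest values, and each gene that a DCT library lists at 0 is at 0 in DCT 4 or DCT 6.

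The remaining 6 selective genes rested on fewer libraries. Sall3, a zinc finger transcription factor, was at 0.0339, 1.70 and 24.6 RPKM in DCT, with DCT 7 and DCT 8 above 15 RPKM and the rest below 3. Its smallest difference of 1.35, from CNT (adjusted p 0.023), was 1.05 without DCT 7 and 0.95 without DCT 8, and was no longer called in either case. Lrtm2, a leucine-rich repeat membrane protein, was at 95.0 RPKM in DCT 1 and at 0 to 6.81 RPKM in the other 7. The difference of 1.52 was 0.86 without DCT 1, and its call was also lost without DCT 3 (1.42) or DCT 8 (1.38). Sdk2, a cell adhesion protein, had 1.40, and 0.97 without DCT 1. Spi1, the myeloid transcription factor PU.1, had 1.27, and 1.03 and 1.01 without DCT 3 and DCT 7. Slc39a2, a zinc importer, had 1.29, and 1.04 and 0.89 without DCT 3 and DCT 8. Stk32a, a protein kinase, had 1.14, and 0.81 and 0.99 without DCT 3 and DCT 7. These calls of Sdk2, Spi1, Slc39a2 and Stk32a were lost on the size of the difference or on the adjusted p, which was 0.027 to 0.2. Of the 6, Stk32a (0.53), Sdk2 (1.26), Spi1 (0.39), Slc39a2 (0.76) and Lrtm2 (1.31) also lost their calls after quantile normalization. Stk32a, Spi1 and Lrtm2 lost them with a pseudocount of 0.1 (adjusted p 0.057 to 0.075), Spi1 with the number of detected genes as a covariate (1.07) and Sdk2 without libraries under 2500 genes (1.07).

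Promoter windows of 300 bases, 250 before and 50 after the start, were read from RefSeq (GRCr8) for 10 of the 14 genes, and 5 of these windows hold the start of the RefSeq gene record. Printed are those of Mlana and Sgca, with the largest differences among the 5, and of Sall3, a transcription factor. Capitals mark matches to 3 of 4 motifs searched on both strands: AP-2 (GCCNNNGGC), the ERR element (AAGGTCA) and the TATA box (TATAAA).
Mlana, chr1:236882825-236883124, plus strand: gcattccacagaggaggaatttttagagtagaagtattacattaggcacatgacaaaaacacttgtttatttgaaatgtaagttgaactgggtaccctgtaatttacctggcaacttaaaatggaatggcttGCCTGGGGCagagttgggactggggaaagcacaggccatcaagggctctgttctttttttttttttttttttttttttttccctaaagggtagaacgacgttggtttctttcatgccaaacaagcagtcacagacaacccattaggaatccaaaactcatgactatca
Sgca, chr10:80416026-80416325, minus strand: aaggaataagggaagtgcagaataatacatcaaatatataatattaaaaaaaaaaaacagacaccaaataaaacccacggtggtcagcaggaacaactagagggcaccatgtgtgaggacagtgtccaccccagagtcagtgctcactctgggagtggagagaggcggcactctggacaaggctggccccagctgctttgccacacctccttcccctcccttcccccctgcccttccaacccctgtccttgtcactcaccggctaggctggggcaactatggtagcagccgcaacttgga
Sall3, chr18:76700856-76701155, minus strand: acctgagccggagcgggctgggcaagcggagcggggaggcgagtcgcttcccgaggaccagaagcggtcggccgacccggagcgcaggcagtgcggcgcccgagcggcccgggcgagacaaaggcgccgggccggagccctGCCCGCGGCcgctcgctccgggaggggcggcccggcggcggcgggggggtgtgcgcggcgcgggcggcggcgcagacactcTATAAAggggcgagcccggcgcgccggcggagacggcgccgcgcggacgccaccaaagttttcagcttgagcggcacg
The AP-2 motif matched in 3 of the 5 windows (Mlana, Sdk2 and Sall3) and in 15.2% of the 33365 windows of the table. TATAAA matched in 1 (Sall3) and in 14.2% of all windows. The ERR element (4.61% of all windows) matched in none of the 5, and neither did the fourth motif. The motifs do not overlap each other in the printed windows, and a match is a run of letters, not a measured binding site. Among factors that read such motifs, the median DCT level was 17.6 RPKM for Tfap2b (AP-2 beta) and 8.46 RPKM for Esrrb.

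Against the pool of all other segments, 468 genes were higher in DCT (4.22% of those tested) and 47 were lower (0.424%), at an adjusted p under 0.05 and a log2 difference of at least 1. The split depended on scaling: it was 404 higher and 157 lower after quantile normalization, and 356 and 143 with the number of detected genes as a covariate, which moved the median difference of all genes to -0.09 and -0.13, against a main value of 0.14 and of 0.49 with a pseudocount of 0.1. Each of the 468 genes passed the same test against a median of 7 single segments, 143 against at least 10 and 4 against none. They included 134 that passed against CNT and 52 against cTAL. In bulk samples, fewer cells of a type and less RNA per cell cannot be told apart.

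Largest among the higher genes after Slc12a3 was Tmem52b, a membrane protein, at 91.5, 661 and 973 RPKM in DCT, against a median of 0.353 RPKM in the other libraries (difference 6.70, SE 0.54, adjusted p 1.7e-19). CNT libraries reached 865 RPKM. Klk1, tissue kallikrein, was at 7.33, 235 and 1847 RPKM in DCT, against a median of 0.0876 RPKM elsewhere, and Klk1c7, of the same gene family, at 7.87, 326 and 1794 RPKM, against 0.103. The differences were 6.00 for Klk1 and 6.31 for Klk1c7 (adjusted p 2e-11 and 1.1e-14), and 6.67 and 6.99 without DCT 4. Both genes were shared with CNT, at 170, 327 and 573 RPKM for Klk1 and 16.6, 180 and 342 RPKM for Klk1c7. Their differences from CNT were -0.6 and 1.01 and not called (adjusted p 0.98 and 0.85). CCD 6 held 1334 RPKM of Klk1 and 1288 RPKM of Klk1c7. Reads of these near-identical copies may be split between them, so the values of each are uncertain.

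Dnase1, a secreted deoxyribonuclease, was at 278, 1199 and 4239 RPKM in DCT, with a median of 20.2 RPKM elsewhere. It was called against the pool (5.42), against cTAL (3.43, adjusted p 0.042) and against CNT (4.13, adjusted p 0.0037). Of the 13 single segments it passed against 11, with OMCD the nearest (1.61). The highest library elsewhere was mTAL 5 at 1342 RPKM. Degs2, an enzyme of phytoceramide synthesis, was at 75.2, 916 and 1972 RPKM in DCT, against a median of 4.87 RPKM elsewhere (difference 5.28). It overlapped OMCD, which reached 2979 RPKM. Ramp3, a partner protein of the calcitonin receptor family, was at 26.7, 60.4 and 314 RPKM in DCT, against a median of 0.128 RPKM elsewhere (4.98). Its difference from cTAL, 2.97, was not called (adjusted p 0.22), and tAL 2 held 269 RPKM. Ly6i, at 83.7, 1040 and 4115 RPKM in DCT, had a difference of 4.95 from the pool but of 0.01 from cTAL. Sfrp2, a secreted Wnt antagonist, was at 1.73, 39.7 and 913 RPKM in DCT, against a median of 0 elsewhere. Its difference of 4.82 was 4.18 without DCT 1, the library at 913. From cTAL the difference of Sfrp2 was 1.56 and not called (adjusted p 0.65). Gal3st1, which makes sulfatides, was at 16.2, 123 and 297 RPKM in DCT, with a difference of 4.68. It was shared with the thick ascending limb, with differences of 0.89 from mTAL and 1.07 from cTAL that were not called, and with 360 RPKM in mTAL 5.

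Among the genes lower in DCT, Cryab had the largest difference. Cryab, a small heat shock protein, was at 0.208, 1.41 and 298 RPKM in DCT, against a median of 781 RPKM elsewhere. DCT 6 held the 298 and the other 7 were at 3.25 RPKM or less. The difference of -6.36 (SE 0.62, adjusted p 1.1e-14) was -7.23 without DCT 6. Car2, a carbonic anhydrase, was at 0.775, 4.73 and 57.0 RPKM in DCT, against a median of 309 RPKM elsewhere, and all DCT libraries were below that median (-4.79). Folr1, the folate receptor, fell by 4.75, and Aqp1, the water channel of proximal tubules and thin limbs, by 3.94. Aqp1 was at 0.0179, 0.701 and 12.9 RPKM in DCT, and at up to 5716 RPKM in SDL. Bok, a member of the Bcl-2 family, had -3.78, Aadat, an aminotransferase, -3.78, Glul, glutamine synthetase, -3.41, Gadd45g, a growth arrest gene, -3.40, Parm1 -3.33 and the elastase gene Cela1 -3.25. Against cTAL the same 10 genes had differences that were not called.

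By level alone, the 15 highest median values in DCT included those of Myl6l (18550 RPKM), Mrpl1 (15293), Fxyd2 (9766) and Fth1 (5813). Fxyd2, the gamma subunit of the sodium pump, was at 2395, 9766 and 23471 RPKM in DCT, against a median of 2189 RPKM in the other libraries. It was the 1 gene of those 4 that was called against the pool, by 1.98 (SE 0.41, adjusted p 0.00024). Another 10 of the 15 were Cox4i1, Atp5b, Atp1b1, Cd63, Cox6a1, Pebp1, Gpx1, Atp5g1, Atp5g3 and Atp5e, at medians of 1362 to 3386 RPKM. Among them 6 encode subunits of cytochrome c oxidase or ATP synthase.

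**Figure D3:**
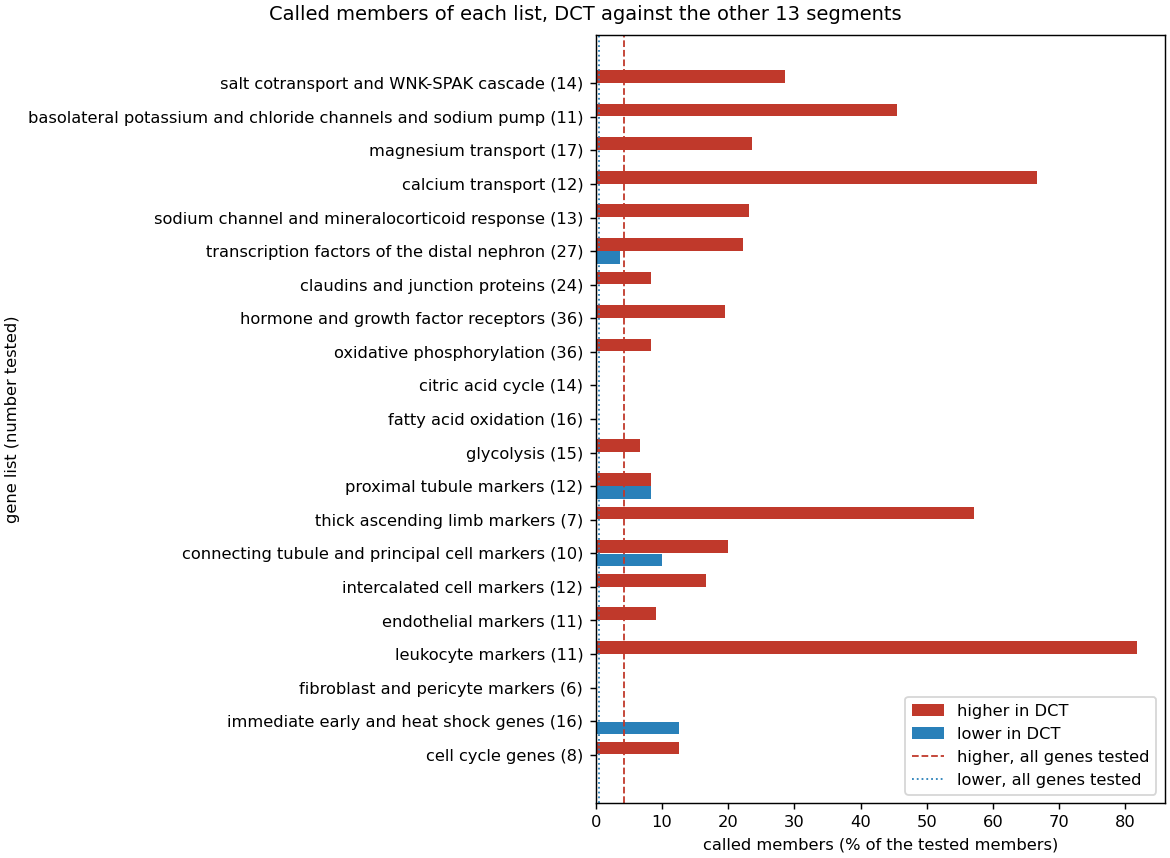
Share of the tested members of each gene list that were called higher (red) or lower (blue) in DCT than in the pool, in percent of the members tested, whose number is in brackets. Dashed and dotted lines mark the share over all genes, 4.22% and 0.424%, and calcium transport, basolateral transport, thick ascending limb and leukocyte lists reach farthest past them.

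Gene lists were read against those shares. For lists with 0 members lower than the pool by limma, the number lower at an unadjusted p under 0.05 was 1 for WNK-SPAK, basolateral transport, sodium channel and receptor genes, 4 for claudins and junction proteins, and 0 for the magnesium, calcium, energy and leukocyte lists. Regulators of salt cotransport were mixed. Of 14 tested members (18 listed) of the WNK-SPAK list, 4 were higher in DCT than in the pool and 0 lower, with a median difference of 0.41, against 0.14 over all genes. They were Slc12a3, Ppp1r1a, Wnk1 and Wnk4. Wnk1, a kinase that occurs in the kidney also as a short form without kinase activity, was at 54.9, 221 and 1538 RPKM in DCT, against a median of 5.38 and a highest value of 224 RPKM elsewhere (cTAL 4). DCT 1 held the highest value and 6 of the other libraries reached the lowest DCT value (difference 5.17, SE 0.61, adjusted p 3.7e-11). Rad52, which overlaps Wnk1 in the RefSeq table and was chosen after its values were seen, was at 33.0, 82.4 and 551 RPKM in DCT, with a difference of 4.39, so reads of this locus may be shared. Wnk4 was at 7.84, 40.9 and 69.7 RPKM in DCT, against a median of 8.91 RPKM elsewhere (2.05, adjusted p 0.0078). Stk39, which encodes SPAK, was at 1.57, 19.8 and 62.3 RPKM in DCT, and its difference of 2.17 missed the threshold (adjusted p 0.055). Wnk2 and Wnk3 did not pass the filter, at medians of 0 in DCT. Klhl2 and Klhl3 are not in the table.

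Basolateral transport genes were higher as well, 5 of 11 in DCT and 0 lower (median 1.78). Kcnj10, the potassium channel Kir4.1, was at 14.5, 72.4 and 171 RPKM in DCT, against a median of 0.0896 and a highest value of 65.5 RPKM elsewhere (OMCD 4). Of the 8 DCT libraries 5 exceeded every other library, and the difference was 4.63 (SE 0.47, adjusted p 4.8e-14). Its differences from cTAL and CNT, 2.35 and 2.28, both missed the threshold with an adjusted p of 0.055. In the table made without polyadenylation-site data its difference from the pool was 1.13, still called. Bsnd, barttin, a subunit of basolateral chloride channels, was higher than the pool by 3.65. Kcnj16, the partner of Kcnj10, had 1.78 (adjusted p 0.25).

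Magnesium handling genes numbered 17 tested (20 listed), of which 4 were higher in DCT than in the pool and 0 lower (median 1.27). Cnnm2, a basolateral magnesium transport protein, was at 1.98, 34.1 and 47.9 RPKM in DCT, against a median of 0.0291 RPKM elsewhere (3.51, adjusted p 1.9e-08). Egf, the growth factor that stimulates magnesium uptake, was at 0.185, 3.38 and 42.3 RPKM in DCT, against 0, 0.000699 and 0.026 RPKM in CNT, so that no DCT library overlapped CNT. It was higher than the pool by 2.14 and than CNT by 2.47, the second not called with DCT and CNT fitted alone (adjusted p 0.11). The difference of Egf from cTAL was -0.12 and not called. Cldn16, the paracellular magnesium and calcium claudin of the thick ascending limb, was at 0.939, 23.8 and 107 RPKM in DCT, against 107, 129 and 188 RPKM in cTAL. It exceeded the pool by 2.61 (adjusted p 0.00048). Umod was the remaining member called. Pvalb, a calcium-binding protein known as a marker of the early DCT in mice, and Kcna1 were listed at 0 in all 8 DCT libraries, and Trpm6, the apical magnesium channel, is not in the table.

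Calcium transport showed the largest share of the transport lists, 8 of 12 tested members (16 listed) higher in DCT than in the pool and 0 lower (median 2.97). Against CNT the list did not stand out, with 3 members higher in DCT, 2 lower and a median of -0.05. Slc8a1 (-2.38, adjusted p 0.072), Vdr (-0.02) and Kl (0.3) were not called against CNT. Calb1, the intracellular calcium buffer calbindin-D28k, was at 121, 189 and 874 RPKM in DCT, against 1291, 3623 and 9971 RPKM in CNT and a median of 0.397 RPKM in all other libraries. The log2 difference from the pool was 5.48 (SE 0.75, adjusted p 9.7e-09), although the plain mean of the segments, 404 RPKM because of CNT, was above the DCT mean of 356 RPKM: the test averages log values. Slc8a1, the sodium-calcium exchanger, was at 1.85, 34.2 and 83.7 RPKM in DCT (3.17), and Atp2b4, a plasma membrane calcium pump, at 0.0111, 6.88 and 37.3 RPKM (2.77). Vdr, the vitamin D receptor, was at 8.87, 95.3 and 156 RPKM in DCT (3.73, and 1.94 in the table made without polyadenylation-site data), and Pth1r, the parathyroid hormone receptor, at 31.7, 50.2 and 324 RPKM (3.31). Casr, the calcium-sensing receptor, had 3.38. The call of Atp2b2, another calcium pump (1.17), was lost without DCT 1 (0.80, adjusted p 0.053) and after quantile normalization (0.94). Kl, which encodes klotho, was at 2.80, 164 and 10723 RPKM in DCT, against a median of 1.95 RPKM elsewhere (4.52). DCT 1 held the 10723, and the difference was 3.64 without DCT 1, 5.27 without DCT 5 and 0.45 (adjusted p 0.24) in the table made without polyadenylation-site data. Trpv5, the apical calcium channel, was at 0, 0.0338 and 4.00 RPKM in DCT, and Trpv6 was listed at 0 in all 8.

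The sodium channel and mineralocorticoid list had 3 of 13 tested members (14 listed) higher in DCT than in the pool and 0 lower (median 0.06). Scnn1a, the alpha subunit of the epithelial sodium channel, was at 1.81, 73.8 and 312 RPKM in DCT, against a median of 1.13 RPKM elsewhere (3.36, and 3.97 without DCT 4). Scnn1b, the beta subunit, was at 7.00, 28.7 and 43.2 RPKM in DCT (2.49), against 30.6, 160 and 236 RPKM in CNT. Scnn1g, the gamma subunit, was at 0, 0.148 and 1.69 RPKM in DCT, against 1.81, 52.9 and 129 RPKM in CNT, and lay below CNT by 4.62 on the log2 scale with no overlap. Kcnj1, the apical potassium channel ROMK, had 1.53, a call lost without DCT 3 (1.40), DCT 5 (1.22), DCT 7 (1.11) or DCT 8 (1.45), with the detected genes as covariate (1.31) and after quantile normalization (0.63). Hsd11b2, which keeps glucocorticoids off the mineralocorticoid receptor, was at 20.9, 156 and 222 RPKM in DCT, against 318, 1368 and 2545 RPKM in CNT (-3.39, adjusted p 0.0028). The receptor itself, Nr3c2, was at 0, 1.55 and 10.4 RPKM in DCT and did not pass against the pool (0.15).

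Of 27 tested transcription factors (30 listed) of the distal nephron, 6 were higher in DCT than in the pool and 1 lower (median -0.06). Lhx1, a homeobox gene of kidney development, was at 0.118, 19.6 and 59.6 RPKM in DCT, against 0, 0.306 and 4.28 RPKM in cTAL, with differences of 2.87 from the pool and 3.06 from cTAL, the second not called with DCT and cTAL fitted alone (adjusted p 0.094). Esrrb, an orphan nuclear receptor, was at 0, 8.46 and 35.1 RPKM in DCT, against at most 0.00482 RPKM in CNT (2.46 from the pool, or 1.59 after quantile normalization, and 3.28 from CNT). Sall3 had 1.81. The calls of Tfap2b, Gata3 and Mecom were less firm. Tfap2b had 2.05 (adjusted p 0.022), and was not called without DCT 1, 2, 3, 7 or 8 (1.78, 1.92, 1.99, 1.81 and 1.94). Gata3 had 1.56, and 1.03, 1.39 and 1.42 without DCT 1, 2 and 3, 0.82 after quantile normalization and 0.94 in the table made without polyadenylation-site data. Mecom had 2.05, and 1.89 and 1.76 without DCT 3 and 7. Without DCT 3, 3 members of the list were called higher. Ehf, an epithelial ETS factor, was at 0, 0.135 and 7.26 RPKM in DCT, against a median of 7.96 RPKM elsewhere (-2.56, and -1.70, not called, in the table made without polyadenylation-site data). Emx1 and Grhl1 are not in the table.

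Among 36 tested receptors (40 listed), 7 were higher in DCT than in the pool and 0 lower (median -0.07). Ptger3, a prostaglandin E2 receptor that inhibits cyclic AMP formation, was at 1.42, 59.9 and 289 RPKM in DCT, against 0, 0.1 and 66.9 RPKM in CNT (3.98 from the pool and 3.89 from CNT, or 4.63 and 4.54 without DCT 4). Ptger4, which stimulates it, was at 0, 7.49 and 62.7 RPKM in DCT, against a median of 0 elsewhere (2.35). Gcgr, the glucagon receptor, was at 0, 49.5 and 156 RPKM in DCT, against a median of 0.0758 RPKM elsewhere (3.35). DCT 6 was the library at 0, and the difference was 4.04 without it. P2ry1, a purinergic receptor, was at 0.239, 4.87 and 59.5 RPKM in DCT, and passed against the pool (2.72), cTAL (2.43) and CNT (2.22). With those pairs of segments fitted alone P2ry1 was not called (adjusted p 0.29 and 0.33), nor against CNT in the table made without polyadenylation-site data (1.61). Adrb1, the beta-1 adrenergic receptor, had 1.51, and 1.18, 1.36 and 1.29 without DCT 1, 3 and 8 and 0.89 after quantile normalization, when it was not called. Pth1r and Casr complete the 7. Against cTAL, Ptger3 (0.48), Gcgr (-0.26), Adrb1 (0.26), Pth1r (-0.48) and Ptger4 (1.99) were not called, and Casr was lower in DCT (-2.89).

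Energy genes lay on the positive side but seldom passed. Of 36 tested genes of oxidative phosphorylation, 35 had a positive difference from the pool, with a median of 1.15 against 0.14 over all genes, of which 58.1% were positive. The 3 called were Cox4i1 (1.26), Cox5b (1.48) and Cox6a1 (1.22), all of cytochrome c oxidase, with adjusted p-values of 0.024 to 0.038, and 0 were lower. The count was 3, 0, 0, 7, 1, 0, 0 and 1 when DCT 1 to DCT 8 were left out in turn. With the other 97 libraries as a single group none of Cox4i1, Cox5b and Cox6a1 was called (adjusted p 0.11 to 0.2). The summed level of the list was 8564, 23909 and 39681 RPKM in DCT, against 6107, 19664 and 31975 RPKM in cTAL and 4640, 10845 and 19471 RPKM in CNT. DCT 4 was the lowest. Neither the 14 genes of the citric acid cycle (median 0.87) nor the 16 of fatty acid oxidation (median 0.77) held a called gene by limma, with 1 and 5 higher and 0 and 0 lower at an unadjusted p under 0.05. Of 15 glycolysis genes 1 was called, Ldhb, the lactate dehydrogenase subunit of oxidative tissues. Ldhb was at 132, 1238 and 4292 RPKM in DCT, against a median of 99.6 RPKM elsewhere (3.90, adjusted p 9.5e-05). Of 24 claudins and junction proteins, 2 were higher in DCT, Cldn16 and the tight junction protein Ocln. Ocln (1.83, adjusted p 0.04) was not called without DCT 1, 2, 3, 6, 7 or 8 (1.65 to 1.86), with the detected genes as covariate (1.46), after quantile normalization (1.16) or without libraries under 2500 genes (1.63).

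Calls against the pool depended in part on its make-up. With the other 97 libraries as a single group, so that segments counted by their number of libraries, the differences of Wnk4, Cldn16, Scnn1b, Kcnj1, Ocln, Tfap2b, Gata3, Mecom and Atp6v1b1 (1.41 to 3.14) and of Aqp1, Aadat, Parm1 and Ehf (-3.81 to -2.61) were not called. Without S1, S2 and S3 in the pool, Tfap2b (1.61), Gata3 (1.02), Mecom (1.55), Kcnj1 (1.25), Ocln (1.49) and Cela1 (-2.32) were not called.

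Against cTAL, the segment just upstream, 52 genes were higher in DCT (0.469%) and 42 lower (0.379%), the fewest calls against any of the 13 segments. IMCD, with 1069 calls, had the most. In 8 of the 52 and 6 of the 42 the libraries did not overlap, a separation that 0.0812% and 0.0903% of all tested genes showed. Calb1 was at 121, 189 and 874 RPKM in DCT, against 0.0151, 0.743 and 14.2 RPKM in cTAL (6.88, SE 1.05, adjusted p 1.1e-06). Slc12a3 had 6.61. Rhcg, the ammonia channel of collecting duct cells, was at 8.00, 70.9 and 255 RPKM in DCT, against 0, 0.241 and 4.30 RPKM in cTAL (5.07, adjusted p 1.1e-07). Pgam2, the muscle phosphoglycerate mutase, was at 7.67, 36.0 and 165 RPKM in DCT, against at most 0.665 RPKM in cTAL (5.02). Glod5, of the glyoxalase domain family, was at 22.4, 57.9 and 470 RPKM in DCT, against at most 15 RPKM in cTAL (5.07). Slc8a1, at 1.85, 34.2 and 83.7 RPKM in DCT, overlapped cTAL, where it reached 3.21 RPKM (4.00, adjusted p 8.3e-05).

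Genes lower in DCT than in cTAL included the apical salt and paracellular genes of the thick limb. Slc12a1, the furosemide-sensitive cotransporter, was at 0.00958, 3.24 and 80.1 RPKM in DCT, against 42.4, 255 and 1212 RPKM in cTAL (-5.33, SE 0.69, adjusted p 8.5e-09). Cldn10, the sodium claudin, was at 0.00724, 1.5 and 27.5 RPKM in DCT, against 40.1, 236 and 377 RPKM in cTAL, without overlap (-5.76, adjusted p 1.5e-05). Umod, which encodes uromodulin, the main protein of normal urine, was at 156, 439 and 1652 RPKM in DCT, against 1961, 12485 and 17802 RPKM in cTAL, also without overlap. The difference was -4.04 (adjusted p 0.028), and the call was lost without DCT 2 (-3.95), DCT 3 (-3.91) or DCT 5 (-3.79), without libraries under 2500 genes (-3.89) and with a pseudocount of 0.1 (adjusted p 0.36). Umod was all the same 5.31 above the pool on the log2 scale, while the plain mean of the 13 segments, 1062 RPKM because of cTAL, exceeded the DCT mean of 710 RPKM. Casr was at 4.16, 35.9 and 63.6 RPKM in DCT, against 15.9, 332 and 546 RPKM in cTAL (-2.89, adjusted p 0.0085). The call of Casr was lost with a pseudocount of 0.1, in the table made without polyadenylation-site data and with DCT and cTAL fitted alone (adjusted p 0.37, 0.1 and 0.09).

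Slc34a2, a phosphate cotransporter, was at 0, 0.017 and 0.214 RPKM in DCT, against 0.323, 13.8 and 35.1 RPKM in cTAL (-3.49). Aldh1a2, which makes retinoic acid, was at 0, 0.06 and 0.377 RPKM in DCT, against 1.15, 12.8 and 33.2 RPKM in cTAL (-3.41). The homeobox genes Irx1 and Irx2 were below cTAL by 2.54 and 3.72 on the log2 scale, and Irx1 was not called after quantile normalization (-1.94). Pkdcc, a secreted kinase, had -3.38, and was not called with a pseudocount of 0.1 or without libraries under 2500 genes (adjusted p 0.05 and 0.055). The macula densa gene Ptgs2, which encodes cyclooxygenase 2, was at 0, 0.144 and 0.382 RPKM in DCT, against 0, 28.6 and 241 RPKM in cTAL (-3.39, adjusted p 3.4e-08), and Nos1, the other macula densa marker in the table, was listed at 0 in all 8 DCT libraries.

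**Figure D4:**
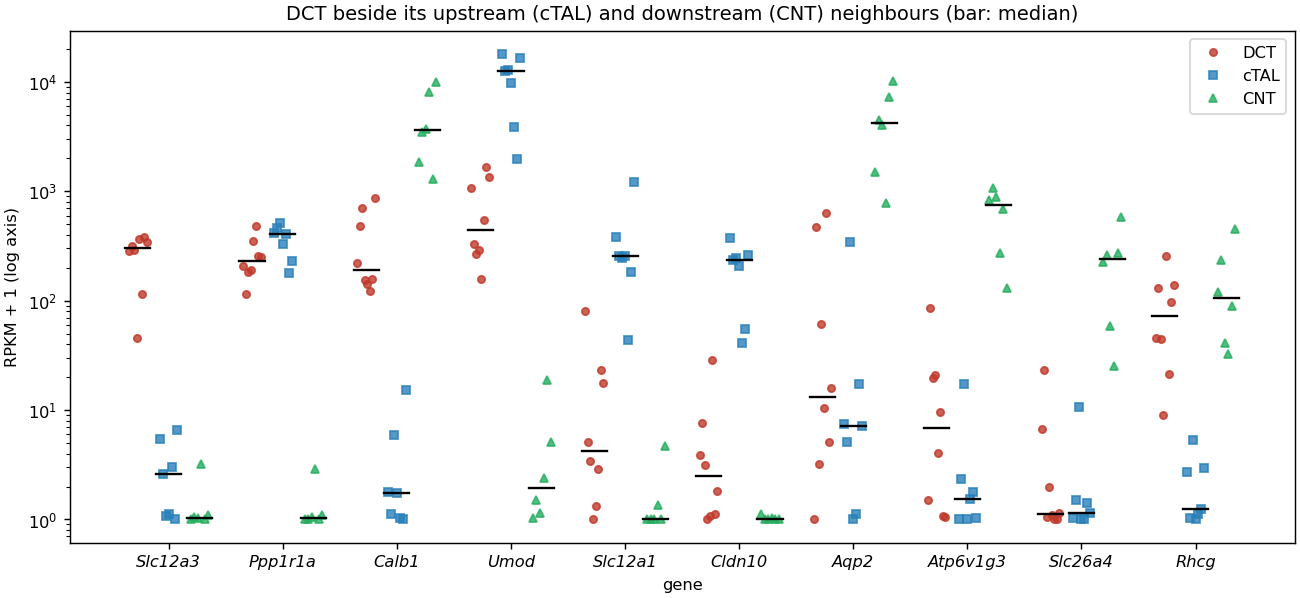
RPKM of 10 genes in each library of DCT (circles), cTAL (squares) and CNT (triangles), on a log axis of RPKM + 1, with bars for medians. Slc12a1, Cldn10 and Umod are lower in DCT than in cTAL, and Aqp2, Atp6v1g3 and Slc26a4 lower than in CNT, where DCT 2 (466 RPKM) and DCT 6 (632 RPKM) hold the most Aqp2.

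Against CNT, the segment just downstream, 140 genes were higher in DCT (1.26%) and 98 lower (0.885%). The libraries did not overlap in 23 of the 140 and 21 of the 98, a separation that 0.262% of all tested genes showed in each direction. Umod was at 156, 439 and 1652 RPKM in DCT, against 0.0384, 0.947 and 17.8 RPKM in CNT (7.58, SE 1.10, adjusted p 1.7e-07), and Ppp1r1a also had 7.58. Slc12a3 had 7.5. Cxcl12, a chemokine, was at 29.2, 68.6 and 312 RPKM in DCT, against 0, 0.00674 and 1.07 RPKM in CNT (6.06), and at 33.7, 114 and 332 RPKM in cTAL, with a difference from cTAL of -0.49 (SE 1.05, adjusted p 1.0). Gal3st1 had 5.77, with at most 9.78 RPKM in CNT. Cnnm2 (3.11), Casr (2.73) and Atp2b4 (1.78) of the divalent cation lists were likewise higher in DCT than in CNT, and so was Esrrb (3.28). With DCT and CNT fitted alone Cnnm2, Casr and Atp2b4 were not called (adjusted p 0.12, 0.22 and 0.51). Casr was also lost without libraries under 2500 genes (2.48), and Atp2b4 after quantile normalization (1.05) and with a pseudocount of 0.1 (adjusted p 0.19).

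Lower in DCT were genes of the water-transporting principal cell and of the acid- and base-secreting intercalated cell, the cell types that CNT holds. Aqp2, the vasopressin-regulated water channel, was at 0.0134, 466, 2.21, 60.6, 9.41, 632, 4.07 and 15 RPKM in DCT 1 to DCT 8, against 774, 4240 and 10109 RPKM in CNT. The groups did not overlap (-7.28, SE 1.15, adjusted p 1.5e-06), and the difference was -6.65 without DCT 1, -7.92 without DCT 2 and -7.98 without DCT 6. Of the 10 tested markers of connecting tubule and principal cells, 8 were lower in DCT than in CNT and 0 higher (by limma, 9 and 0 at an unadjusted p under 0.05), among them Aqp3 (-5.52), Aqp4 (-4.19), Avpr2, the vasopressin receptor (-3.54), and Trpv5 (-1.79). Trpv5 was not called with DCT and CNT fitted alone (adjusted p 0.3), nor Avpr2 with a pseudocount of 0.1 or in the table made without polyadenylation-site data (adjusted p 0.085 and 0.082). Calb1 had -3.77 (adjusted p 0.039), a call lost without DCT 1 (-3.73), DCT 4 (-3.66), DCT 5 (-3.64), DCT 6 (-3.61) or DCT 7 (-3.66), without libraries under 2500 genes (-3.43), in the table made without polyadenylation-site data (-3.58) and with a pseudocount of 0.1 (adjusted p 0.32).

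Of the 12 tested intercalated cell markers, 9 were lower in DCT than in CNT and 0 higher (by limma, 11 and 0 at an unadjusted p under 0.05). Slc26a4, the chloride-bicarbonate exchanger pendrin, was at 0, 0.112 and 22.1 RPKM in DCT, against 24.4, 241 and 587 RPKM in CNT (-6.20, adjusted p 3.8e-11). Atp6v1g3, a proton pump subunit, was at 0.0471, 5.82 and 85.0 RPKM in DCT, against 129, 754 and 1074 RPKM in CNT (-6.37). The transcription factors Foxi1 and Hmx2 had -4.37 and -5.79, and Gata2 -4.49. Kcne1, a potassium channel subunit, was at 0, 0.0568 and 1.06 RPKM in DCT, against 22.4, 66.2 and 138 RPKM in CNT (-5.65). Slc4a1 (-4.02), Slc4a9 (-4.35), Aqp6 (-3.53), Insrr (-4.34) and Kit (-2.77) made up the 9. Aqp6 and Kit were not called in the table made without polyadenylation-site data, where they had -0.63 and -0.70 (adjusted p 0.85 and 0.36). The exceptions were Rhcg, at 8.00, 70.9 and 255 RPKM in DCT against 31.6, 104 and 447 RPKM in CNT (-0.83, adjusted p 0.86), Atp6v1b1, another proton pump subunit (-1.85, adjusted p 0.36), and Atp6v0d2. Rhcg and Atp6v1b1 were also the 2 members of the list that were higher in DCT than in the pool, by 3.74 and 3.25.

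The 8 DCT libraries differed among themselves in the markers of neighbouring and other cells. The summed level of 7 thick ascending limb markers was 312, 673 and 2055 RPKM in DCT, against 2398, 13773 and 19403 RPKM in cTAL and 0.563, 42.8 and 113 RPKM in CNT. All DCT libraries lay between those groups, with DCT 1, DCT 7 and DCT 8 at the top. Most of the sum in those 3 libraries was Umod, with 1081 of 1477, 1652 of 2055 and 1357 of 1760 RPKM. Of the 7 markers 5 were lower in DCT than in cTAL, against 3 without DCT 2, DCT 3 or DCT 5. The 10 connecting tubule and principal cell markers summed to 273, 646 and 1391 RPKM in DCT, against 1.6, 78.8 and 531 RPKM in cTAL and 5617, 9901 and 22466 RPKM in CNT, with DCT 2 and DCT 8 highest. Calb1 made up 874 of 1134 RPKM in DCT 8, where Aqp2 was at 15 RPKM. In DCT 2 Calb1 held 483 RPKM and Aqp2 466 RPKM. The 12 intercalated cell markers summed to 38.7, 207 and 532 RPKM in DCT, against 0.0677, 100 and 353 RPKM in cTAL and 877, 2068 and 3449 RPKM in CNT. The part of neighbouring cells in the values of Umod, Calb1, Rhcg and Casr in DCT was not tested. Proximal markers, 12 in all, summed to 78.5, 301 and 741 RPKM in DCT, against up to 28240 RPKM in another library, with Slc7a13 lower in DCT than in the pool (-2.42, and -1.33, not called, without S1, S2 and S3 in the pool).

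**Figure D5:**
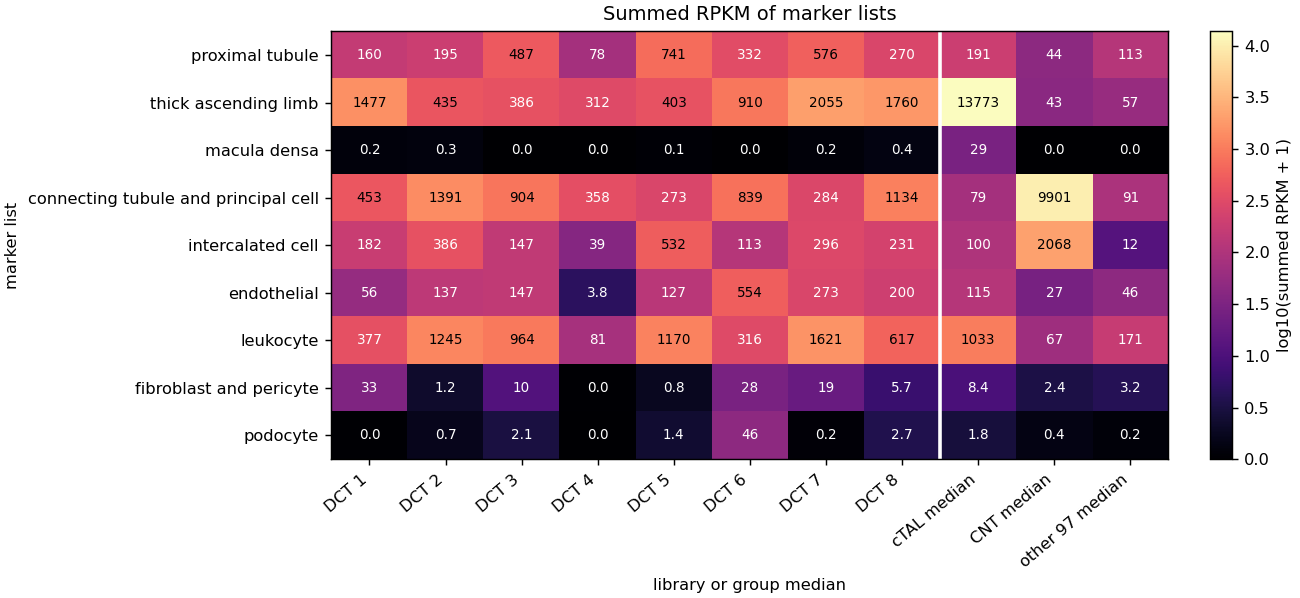
Heat map of the summed RPKM of 9 marker lists of other cell types (rows) in each DCT library (left) and as the median of the cTAL, CNT and all 97 other libraries (right), with colour for log10(summed RPKM + 1) and the RPKM printed in each field. Thick limb sums of DCT lie between the medians of cTAL and CNT, and DCT 6 stands highest for endothelial (554 RPKM) and podocyte (45.7 RPKM) markers.

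Leukocyte markers had the largest share called of all lists. Their sum was 377, 1245, 964, 81.2, 1170, 316, 1621 and 617 RPKM in DCT 1 to DCT 8, against 351, 1033 and 1178 RPKM in cTAL and 8.13, 67.0 and 259 RPKM in CNT. The DCT and cTAL libraries overlapped, and 7 of the 8 DCT libraries were above all of CNT. Of 11 tested members, 9 were higher in DCT than in the pool and 0 lower (median 2.40), and against cTAL 0 passed in either direction by limma, as at an unadjusted p under 0.05. When DCT 1 to DCT 8 were left out in turn, 7, 5, 4, 10, 4, 8, 3 and 4 were higher. Ptprc (-0.11) and Cd68 (1.42) were tested and not called against the pool. With the other 97 libraries as a single group, Cd74, Lyz2, Tyrobp and Aif1 were not called (adjusted p 0.074 to 0.27). Cd74 (2.32) and Aif1 (2.18) were not called with the detected genes as covariate, nor Aif1 after quantile normalization (2.11). C1qa, a complement gene of macrophages, was at 0, 46.5 and 98.9 RPKM in DCT, against 0.651, 25.3 and 60.3 RPKM in cTAL and 0, 0.0258 and 0.658 RPKM in CNT. It exceeded the pool by 3.09 (3.68 without DCT 1 and 3.70 without DCT 4) and CNT by 4.12 (4.71 and 4.73). C1qb had 3.06 against the pool (3.67 without DCT 1) and 3.5 against CNT (4.11 without DCT 1, and 3.22, not called, without DCT 8, or with a pseudocount of 0.1, adjusted p 0.062). Cd52 was listed at 0 in all 8 DCT libraries. Spi1, among the selective genes, is a gene of this lineage too, and the part of leukocytes in its value, or in the 468 genes higher than the pool, was not tested.

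Endothelial markers, 11 of 12 tested, summed to 3.78, 142 and 554 RPKM in DCT, against 0.101, 115 and 144 RPKM in cTAL, and 1 of them, Egfl7, was higher in DCT than in the pool (2.52, and not called without DCT 8, 2.29). Of 6 fibroblast and pericyte markers and 3 podocyte markers tested, 0 passed the limma test in either direction, and 0 did at an unadjusted p under 0.05. Of 16 immediate early and heat shock genes, which respond to dissection and warming, 2 were lower in DCT than in the pool (median -1.02). Against cTAL or CNT 0 were called in either direction by limma, as at an unadjusted p under 0.05. Egr1 was at 0.0726, 3.79 and 51.0 RPKM in DCT, against a median of 65.6 RPKM elsewhere (-2.74). Egr1 was not called in the table made without polyadenylation-site data (-1.25, adjusted p 0.45) or with the other 97 libraries as a single group (adjusted p 0.18). Atf3 had -3.19, a call lost without any of DCT 1 to DCT 7 (-3.05 to -3.35) or with the other 97 libraries as a single group (-3.08), and at -3.81 without DCT 8. The summed level of the list was 43.2, 342 and 1229 RPKM in DCT, against 133, 354 and 1070 RPKM in cTAL and 73.4, 484 and 1058 RPKM in CNT, which were digested for the same 25 minutes. For the medullary segments in the pool, digestion time and segment cannot be told apart. Of 8 cell cycle genes, 1 was higher in DCT, Ccna2 (1.10), and was not called without DCT 1, 2, 3 or 8 (0.75, 1.05, 0.86 and 1.06), nor with the detected genes as covariate (0.92), after quantile normalization (0.76) or with the other 97 libraries as a single group (1.08).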

How the data were processed

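The libraries followed a single-cell RNA-seq protocol with paired reads of 50 nt, per the labels' protocols. Tools in the submitters' processing notes are HOMER, SAMtools, STAR 2.3.0-r192 and Trimmomatic 0.32, with rn5 as the build. The deposited table gives RPKM per RefSeq transcript, made by the authors with polyadenylation-site data in a way not given in the sources used here; 17974 entries gave 17144 symbols, and for 503 symbols with several entries the one with the highest mean was kept. Read depth is unknown: in 7 of 7 DCT libraries the 2 most frequent ratios of low values to DCT 8 were 1.0 apart on the log2 scale, so no counting intervals are given.

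The 11078 genes that reached 1 RPKM in 4 or more tubule libraries were tested on log2(RPKM + 1) by the trended moderated test of limma 3.58.1 (R 4.3.3), two-sided, in 1 fit with a mean per segment, with Benjamini-Hochberg adjustment over all genes of a comparison. The pool is the equally weighted mean of 13 segment means. A call needed an absolute log2 difference of 1 or more beside an adjusted p under 0.05. The fit was tested on simulated data. Named are the 15 called genes farthest above and the 10 farthest below the pool, all selective genes, the 5 largest without overlap per direction against each neighbour, the 15 highest medians, and list members. Some genes that this rule names are not reported here. The members of the comparison and the 23 lists were chosen with earlier results of these data known. Alternatives were another pseudocount, no filter, quantile normalization, the RPKM table deposited without polyadenylation-site data, a replicate block, detected genes as a covariate, all transcripts, other pools, single pairs of segments and leaving out libraries. Tables and plots were made in Python 3.11.15 (pandas 2.3.3, numpy 2.4.6, matplotlib 3.10.9).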

Additional observations from a re-analysis of the deposited data

Results flagged for a closer look

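Of 118 sets of 8 DCT values examined on the log2(RPKM + 1) scale, 16 held a library far from the other 7, and chance alone gives about 5% of such sets. They were in DCT 6 and DCT 8 (4 each), DCT 2 (3), DCT 1 and DCT 4 (2 each) and DCT 3 (1), with none in DCT 5 or DCT 7.

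In DCT 6, Cryab was at 298 RPKM, against 0.208 to 3.25 RPKM in the other DCT libraries. Pth1r was at 324 RPKM there, against 31.7 to 90.6 RPKM, Ehf at 7.26 RPKM, against 0 to 0.565 RPKM, and Parm1 at 1.65 RPKM, against 0 to 0.107 RPKM. DCT 6 also had the highest endothelial and podocyte marker sums and 632 RPKM of Aqp2, whose part in these values was not tested.

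In DCT 2, 3 genes of the connecting tubule and collecting duct stood apart. Aqp4 was at 8.13 RPKM, against 0 to 0.589 RPKM in the other DCT libraries, Hmx2 at 18.8 RPKM, against 0 to 2.84 RPKM, and Scnn1g at 1.69 RPKM, against 0 to 0.579 RPKM. The same library held 466 RPKM of Aqp2 and the highest connecting tubule and principal cell marker sum of DCT, 1391 RPKM.

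In DCT 8, Insrr was at 2.09 RPKM, against 0 to 0.0602 RPKM in the other 7, Kit at 0.208 RPKM, against 0 to 0.0659 RPKM, Irx2 at 3.59 RPKM, against 0 to 0.733 RPKM, and Atf3 at 39.4 RPKM, against 0 to 3.31 RPKM. In DCT 4, Wnk4 was at 7.84 RPKM, against 25.9 to 69.7 RPKM in the others, and Kcne1 at 1.06 RPKM, against 0 to 0.341 RPKM. In DCT 1, Lrtm2 was at 95.0 RPKM, against 0 to 6.81 RPKM, and Slc7a13 at 0.246 RPKM, against 0 to 0.0482 RPKM. Aqp1 in DCT 3 was at 12.9 RPKM, against 0.0179 to 2.41 RPKM in the other 7.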

How the results depend on the processing

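Of 150 called gene differences chosen for this check, 84 kept their call under every alternative run and 66 lost it under at least 1, and 0 reversed. These 150 are a chosen part of the calls, which numbered 515 against the pool, 94 against cTAL and 238 against CNT. The number lower than the pool was 47, against 143 with the detected genes as covariate, 157 under quantile normalization, 14 with the other 97 libraries as a single group and 88 without S1, S2 and S3, and the causes were not tested. Pairs of segments fitted alone took their spread from fewer libraries, and from that pair only. DCT and cTAL then gave 18 higher and 14 lower genes (52 and 42 in the joint fit). DCT and CNT gave 74 and 62 (140 and 98). Selective genes numbered 14, 9 after quantile normalization, and 11 to 22 without 1 DCT library. Without 1 DCT library, 320 to 695 genes were higher and 33 to 42 lower than the pool, 44 to 73 and 36 to 44 than cTAL, and 108 to 198 and 84 to 100 than CNT.

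Residuals of libraries with the same replicate number correlated at 0.043 to 0.625 between DCT and cTAL (7 pairs) and at -0.199 to 0.225 between DCT and CNT (6 pairs), so the numbers were not taken to pair libraries. With the replicate number as a block, 469 genes were higher and 51 lower than the pool, 48 and 43 than cTAL, 135 and 103 than CNT, and 13 were selective. Under the block Sall3 was not selective (1.24, adjusted p 0.098), and Cox4i1 (1.24), Cox5b (1.44) and Ccna2 (1.01) were not called against the pool. For 3 of 7 DCT libraries the closest cTAL library had the same number. Quantities of genes under a few RPKM are limited by a depth that is unknown.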
